A study of Mus musculus with 12 samples.

Results

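The regulators of the transcription factor NRF2 were followed at the level of their mRNAs in mouse liver. The set held 9 genes, Keap1, Nfe2l2, Nfe2l1, Cul3, Rbx1, Mafg, Maff, Mafk and Bach1. Their rows were taken by symbol from a table of 24411 genes. The symbols were chosen with earlier results of these data known. All 9 were in the table, and all 9 passed the filter on low counts and were among the 13922 genes tested. Nqo1, a classical NRF2 target, was set beside them as a readout of NRF2 activity. Livers came from 3 cont. mice (Atg7 flox/flox without Cre), Atg7-KO mice (genotype Atg7 flox/flox; Alb-Cre, in 3 animals) and 3 Atg7-KO;p62T352A mice, which carried in addition 2 copies of a p62 knock-in allele, all at 3 months of age and on the C57BL/6 background. All 9 mice thus had floxed Atg7, a gene needed for autophagy. Alb-Cre is driven by the albumin promoter, which is active in hepatocytes, the RNA was from whole liver, and the loss of Atg7 was not measured by cell type. The T352A exchange in p62, the product of Sqstm1, was made by prime editing in embryonic stem cells to stop p62 from holding KEAP1, and the study asked whether that hold drives NRF2 in the autophagy-deficient liver. A group of 3 labelled mice with p62T352A and intact Atg7 was not analysed here.

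KEAP1 is the substrate receptor of a ubiquitin ligase whose scaffold is CUL3 and whose RING subunit is RBX1, and this ligase marks NRF2 for the proteasome until oxidants or electrophiles modify KEAP1. In autophagy-deficient liver, p62 accumulates and binds KEAP1, and NRF2 escapes. NRF2 (gene Nfe2l2) and its relative NRF1 (gene Nfe2l1), which controls proteasome genes, bind antioxidant response elements as dimers with a small Maf protein, MAFG, MAFF or MAFK. BACH1 pairs with the same small Mafs, occupies many of these elements and represses them until heme binds it. These steps act on proteins, which the RNA data do not measure.

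Total counts were between 9671073 and 23285134 per mouse. Values below are normalized CPM (each count divided by the mouse's library size, which was scaled by edgeR's TMM method, and given on the usual CPM scale), and a difference was called where edgeR's quasi-likelihood test gave a Benjamini-Hochberg adjusted p under 0.05 over all genes tested and a fold change over 1.5. Atg7 mRNA was 44.2 to 55.4 CPM in cont. mice, 9.57 to 12.0 in Atg7-KO mice and 27.4 to 29.7 in Atg7-KO;p62T352A mice, so that it was 2.73-fold higher in the latter than in Atg7-KO mice (adjusted p = 0.000164). It was 1.68-fold lower there than in cont. (adjusted p = 0.0206, a call lost in 4 of 18 alternatives). By immunoblot, the paper found hardly any ATG7 protein in Atg7-KO livers with or without the p62 mutation. Hepatocyte markers (7 genes) summed to 68480 to 122925 CPM in cont., 36870 to 39547 in the Atg7-KO mice and 105847 to 120598 in Atg7-KO;p62T352A mice, while macrophage markers (10 genes) summed to 228 to 297, 869 to 922 and 165 to 322 CPM, cholangiocyte markers (7 genes) to 66.9 to 70.1, 849 to 1046 and 205 to 289.6 CPM, and stellate cell markers (7 genes) to 111 to 125, 541 to 732 and 138 to 224 CPM. Lymphocyte and neutrophil markers (8 genes) summed to 15.8 to 27.7, 67.1 to 74.9 and 23.05 to 27.3 CPM, and erythroid markers (5 genes) to 518 to 1118, 314 to 378 and 558 to 890.4 CPM. Endothelial markers (6 genes) summed to 254 to 318 and 259 to 269.8 CPM but to 134 to 165 CPM in Atg7-KO;p62T352A mice, the genotype with the lowest Cul3 and Bach1. There 4 of the 6 were called lower against Atg7-KO, beside 26.2% of all genes tested, and 4 against cont., beside 5.34%. The sums hide markers that went apart. In Atg7-KO against cont., 7 macrophage markers were called higher and 1 lower, and 3 endothelial markers higher and 1 lower. Of all genes tested, 21.6% were called higher and 22.1% lower in this comparison. In Atg7-KO;p62T352A against Atg7-KO, 2 macrophage markers were called higher and 7 lower, and 2 erythroid markers higher and 1 lower, beside 24.7% and 26.2% of all genes. The calls of each remaining list went in a single direction in these comparisons. No marker was at 0 in a whole group. These shifts moved with the genotypes compared below, and their part in the results was not tested. In bulk liver, fewer cells of a type and less RNA per cell cannot be told apart. The mouse numbered 1 in every genotype had 7 to 28 counts of Xist, the RNA of the inactive X chromosome, and the other 6 mice had 8578 to 18335. The labels give no sex. Cont. mouse 1 also had the most counts and the lowest TMM factor (0.750).

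Nqo1, a quinone reductase, was at 6.36, 7.28 and 12.2 CPM in the cont. mice, at 175, 219 and 249 CPM in the Atg7-KO mice and at 11.7, 13.2 and 18.4 CPM in the Atg7-KO;p62T352A mice. The Atg7-KO mean exceeded that of cont. 25.1-fold (95% interval 15.3 to 41.1, adjusted p = 1.57e-05) and 14.9-fold lower in Atg7-KO;p62T352A than in Atg7-KO (adjusted p = 3.48e-05). The Atg7-KO mice stood apart from all others, and the ranges of cont. and Atg7-KO;p62T352A mice overlapped (log2 fold change 0.75, 95% interval 0.12 to 1.39, adjusted p = 0.117). Without cont. mouse 3, the cont. mouse with the most Nqo1, Atg7-KO;p62T352A was called higher than cont. (log2 1.08, adjusted p = 0.0323), and 17 of 18 alternatives made no such call. Sqstm1, which encodes p62 and is itself an NRF2 target, was 2.36-fold over cont. in Atg7-KO (adjusted p = 0.00189) and 1.68-fold lower in Atg7-KO;p62T352A than in Atg7-KO (adjusted p = 0.0174, lost in 4 of 18 alternatives at up to 0.0634). Its log2 difference between Atg7-KO;p62T352A and cont. was 0.49 (adjusted p = 0.177), and without cont. mouse 1 it was called higher (0.73, adjusted p = 0.0134). The plot of CPM by mouse shows the regulators beside this pattern: no regulator had its 3 Atg7-KO mice above all 6 others. In the other direction, Rbx1 alone had them below all 6 others (46.8 to 52.9 CPM against 55.3 or more).

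**Figure D1:**
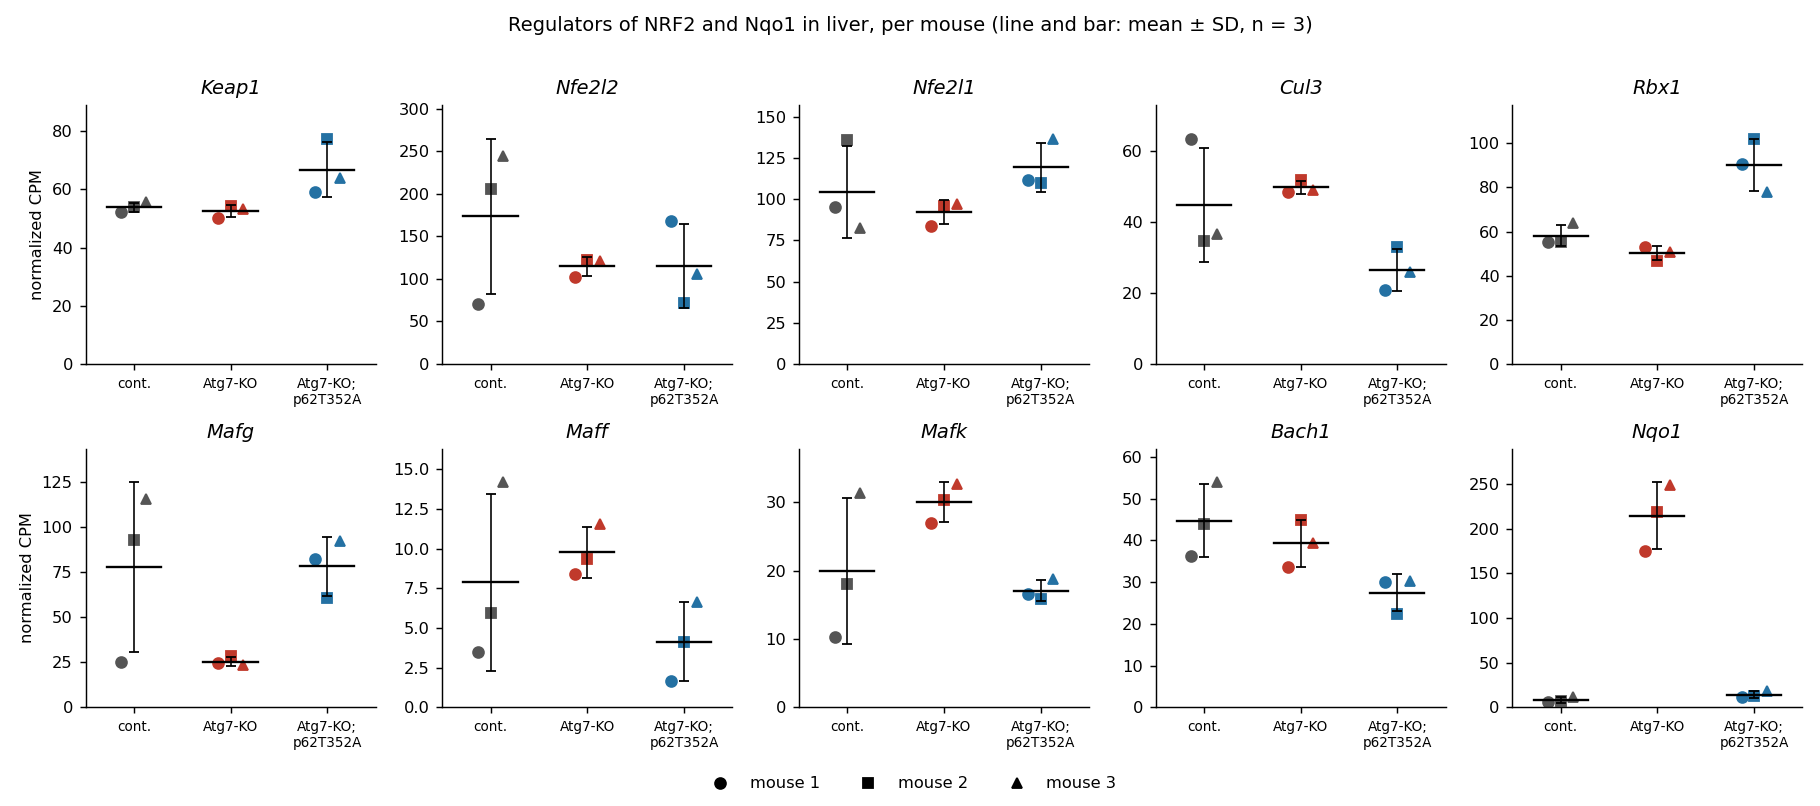
Normalized CPM (vertical axes, linear, starting at 0) of the 9 regulators and Nqo1 in each mouse of the 3 genotypes (horizontal axes); symbols mark the mouse number, and line and bar give mean and SD (n = 3). Nqo1 was at 175 to 249 CPM in Atg7-KO mice and at 6.36 to 18.4 CPM in the other mice, whereas Keap1 stayed between 50.3 and 77.3 CPM in all 9.

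Of the 9 regulators, 1 was called in Atg7-KO against cont. (Mafg, lower), beside 43.7% of all genes tested. In Atg7-KO;p62T352A against Atg7-KO, 3 were called (Rbx1 and Mafg higher, Cul3 lower), beside 51.0% of all genes. Against cont., the Atg7-KO;p62T352A mice differed in 1 regulator (Rbx1, higher), beside 11.6% of all genes. Their median on the log2 scale was -0.18, 0.00 and -0.21 in these comparisons, and that of all genes tested was -0.03, 0.00 and 0.00. Groups did not overlap for 1 regulator in the first comparison (Rbx1, lower), beside 55.5% of all genes (26.3% lower). They did not overlap for 8 regulators in the second (4 higher and 4 lower), beside 73.2% of all genes (36.4% higher and 36.8% lower), and for 4 in the third (2 higher and 2 lower), beside 26.6% of all genes (15.5% higher and 11.2% lower). The share of regulators called was thus 11.1%, 33.3% and 11.1%, below the background in the first and second comparison and close to it in the third. The comparisons share groups of mice and are not independent of each other.

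**Figure D2:**
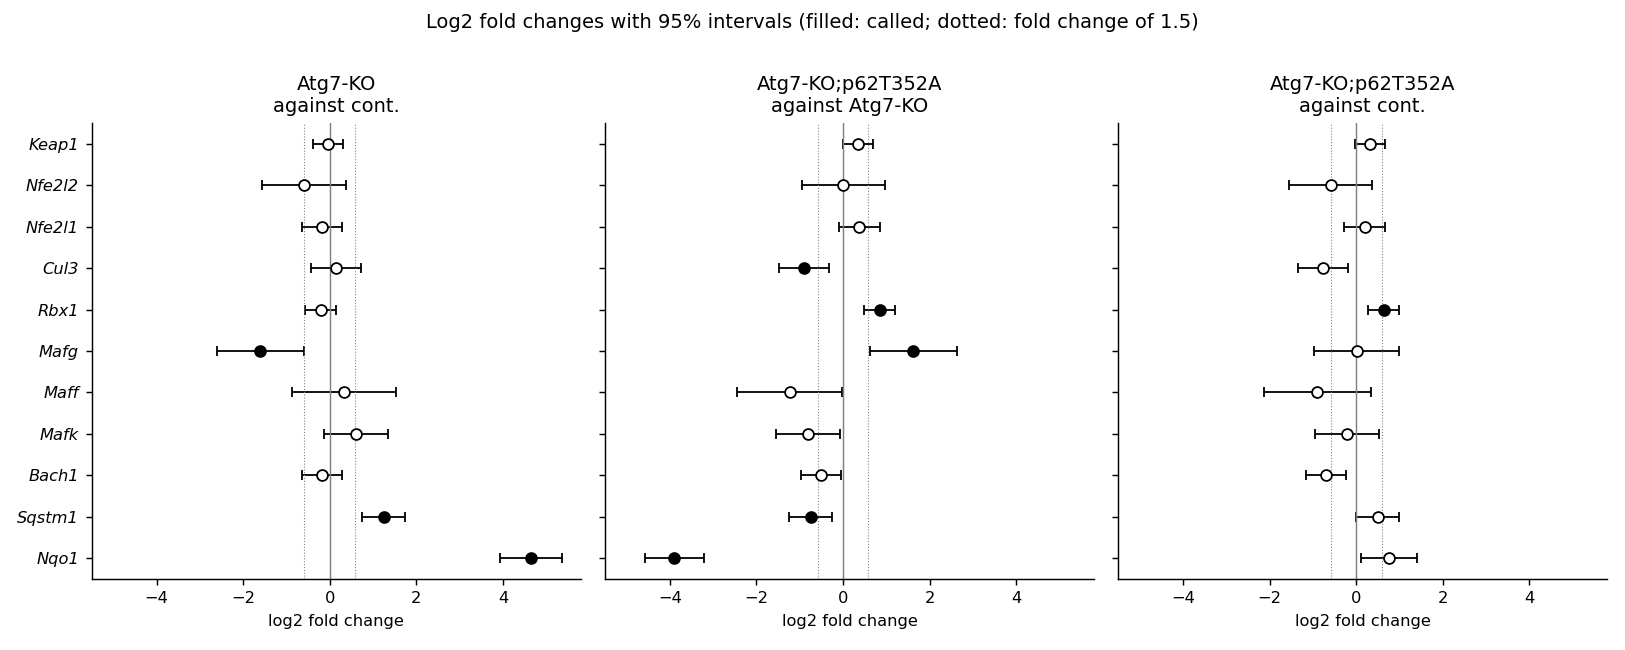
Log2 fold changes (horizontal axis) of the 9 regulators, Sqstm1 and Nqo1 with 95% intervals in 3 comparisons; filled points were called, and dotted lines mark a fold change of 1.5. Nqo1 lay at 4.65 in the left panel and at -3.89 in the middle panel, whereas Nfe2l2 lay at -0.60 and 0.00.

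Keap1 (chr9:21229730-21239361, minus strand, GRCm38), the sensor and substrate receptor, had 52.3, 53.8 and 55.5 CPM in the cont. mice. Its values were 50.3, 54.4 and 53.2 CPM in the Atg7-KO mice and 59.1, 77.3 and 64.0 CPM in the Atg7-KO;p62T352A mice. Cont. and Atg7-KO mice covered the same narrow range, and the log2 difference of -0.03 had a 95% interval from -0.38 to 0.31, which leaves out a fold change of 1.5 (adjusted p = 0.877). All 3 Atg7-KO;p62T352A mice lay above all 6 others, by 0.34 on the log2 scale over Atg7-KO (interval -0.00 to 0.69, adjusted p = 0.0841) and by 0.31 over cont. (adjusted p = 0.219), and neither difference was called. In the annotation, 6.17% of the 75-base stretches of Keap1 transcripts also occur in the antisense gene Gm16754, which the table does not list, and the strand setting of the counting is not given in the sources used here.

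Cul3 (chr1:80264923-80340480, minus strand), the scaffold of the ligase, had 63.4, 34.5 and 36.6 CPM in cont., 48.5, 51.7 and 49.0 CPM in the Atg7-KO mice and 20.9, 32.9 and 25.8 CPM in Atg7-KO;p62T352A mice. The last group lay below all 6 others, and cont. mouse 1 was the highest of the 9. Cul3 fell by 0.91 on the log2 scale from Atg7-KO to Atg7-KO;p62T352A (SE 0.26, adjusted p = 0.0146), and the call was lost without Atg7-KO;p62T352A mouse 1 (log2 fold change -0.76, adjusted p = 0.0603) and in edgeR's test of a fold change above 1.5 itself (glmTreat, adjusted p = 0.103). Against cont. the log2 difference of Atg7-KO;p62T352A was -0.76 (adjusted p = 0.0858, called by DESeq2 at -0.82 and adjusted p = 0.0398). Over the 18 alternatives it was -1.00 to -0.28, and the other 17 made no call. The log2 difference of Atg7-KO from cont. was 0.15 (interval -0.42 to 0.72, adjusted p = 0.658). Without cont. mouse 1 that difference was 0.48 (adjusted p = 0.0383), under the fold threshold.

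Rbx1 (chr15:81466296-81476369, plus strand), the RING subunit that recruits the E2 enzyme, went the other way. It had 55.3, 55.4 and 63.7 CPM in cont., 52.9, 46.8 and 50.9 CPM in the Atg7-KO mice and 90.5, 101.7 and 78.0 CPM in Atg7-KO;p62T352A mice. The 3 genotypes did not overlap, with Atg7-KO lowest and Atg7-KO;p62T352A highest. Rbx1 was 1.80-fold higher in Atg7-KO;p62T352A than in Atg7-KO (95% interval 1.40 to 2.31, adjusted p = 0.00209), a call that held in all 18 refits but not in edgeR's test of a fold change above 1.5 itself (glmTreat, adjusted p = 0.0582). It was 1.55-fold higher than in cont. (interval 1.21 to 1.99, adjusted p = 0.0346), which is close to the fold threshold, and 13 of 18 alternatives lost that call at fold changes of 0.53 to 0.72 on the log2 scale, among them every fit without a mouse other than cont. mouse 1 and cont. mouse 3. The lower Rbx1 values of Atg7-KO against cont. differed by -0.21 on the log2 scale (adjusted p = 0.303). In the 3 Atg7-KO;p62T352A mice the log2 ratio of Rbx1 to Cul3 was 1.60 to 2.11, against -0.14 to 0.12 in Atg7-KO mice and -0.20 to 0.80 in cont. mice. The ratio did not overlap with either group (exact two-sided permutation p = 0.1 for each, the smallest that 3 mice against 3 allow). Rbx1 alone was higher and Cul3 alone lower without overlap in both comparisons. The separation of the ratio was therefore fixed in advance and adds no evidence. Of the stretches of Rbx1, 2.21% also occur in the pseudogene Rbx1-ps, a near copy from which reads could be split.

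Nfe2l2 (chr2:75675513-75704641, minus strand), the gene of NRF2, had 70.9, 205 and 244 CPM in the cont. mice. The Atg7-KO mice had 102, 122 and 121 CPM, and the Atg7-KO;p62T352A mice had 168, 71.1 and 106 CPM. The Atg7-KO values lay inside the range of both other genotypes. Neither Atg7-KO nor Atg7-KO;p62T352A differed from cont. at the threshold (log2 fold changes -0.60 and -0.59, adjusted p = 0.283 and 0.404), and the difference between them was 0.00 with a wide interval of -0.96 to 0.96 (adjusted p = 0.997). The 2 comparisons with cont. rested on cont. mouse 1: without it Nfe2l2 was called lower in Atg7-KO (-0.97, adjusted p = 0.0160) and in Atg7-KO;p62T352A (-0.97, adjusted p = 0.0366). Without the mouse numbered 1 of each genotype the values were -0.89 (adjusted p = 0.00991) and -1.35 (adjusted p = 0.00921). Per unit of Nfe2l2 mRNA, Nqo1 was higher in Atg7-KO mice than in any other mouse: the log2 ratio of their CPM was 0.78 to 1.05 in Atg7-KO, -4.82 to -3.48 in cont. and -3.84 to -2.43 in Atg7-KO;p62T352A mice. Atg7-KO thus differed by 34.3-fold from cont. and by 14.2-fold from Atg7-KO;p62T352A in this ratio, without overlap (exact permutation p = 0.1 for each). Nqo1 alone had no overlap in these comparisons either, so the separation of the ratio adds no evidence.

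Nfe2l1 (chr11:96817414-96829968, minus strand), the gene of NRF1, had 95, 136 and 82.5 CPM in cont., 83.6, 95.8 and 97.1 CPM in the Atg7-KO mice and 112, 109.8 and 136 CPM in Atg7-KO;p62T352A mice. Atg7-KO;p62T352A mice lay above Atg7-KO mice and overlapped with cont. None of the differences was called (log2 -0.18, 0.37 and 0.19 for Atg7-KO against cont., Atg7-KO;p62T352A against Atg7-KO and Atg7-KO;p62T352A against cont., with adjusted p = 0.505, 0.160 and 0.599).

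Among the small Mafs, Mafg (chr11:120625117-120633600, minus strand) had 24.9, 92.6 and 115 CPM in cont., 24.5, 28.3 and 23.6 CPM in the Atg7-KO mice and 82.1, 60.4 and 92.2 CPM in Atg7-KO;p62T352A mice. The Atg7-KO mice lay below all Atg7-KO;p62T352A mice and below cont. mice 2 and 3, but cont. mouse 1 lay among them. Mafg fell by 1.61 on the log2 scale from cont. to Atg7-KO (SE 0.45, 3.04-fold, adjusted p = 0.0163) and was 3.08-fold higher in Atg7-KO;p62T352A than in Atg7-KO (SE 0.45 on the log2 scale, adjusted p = 0.0133). The latter call held in all 18 refits and with glmTreat (adjusted p = 0.0374), with log2 fold changes of 1.48 to 1.78. The fall in Atg7-KO was larger without cont. mouse 1 (-2.03, adjusted p = 2.17e-05), and its call was lost without cont. mouse 3 (-1.21, adjusted p = 0.0570), Atg7-KO mouse 1 (-1.58, adjusted p = 0.0548) or Atg7-KO mouse 3 (-1.55, adjusted p = 0.0583). Between Atg7-KO;p62T352A and cont. the difference was 0.01 (interval -0.97 to 1.00, adjusted p = 0.989) and turned to -0.41 without cont. mouse 1 (adjusted p = 0.140). The 3′ end of Mafg overlaps the start of Sirt7, a deacetylase gene on the same strand that was added to the description after its values were seen. Sirt7 had 43.0, 116 and 109.7 CPM in cont., 21.8, 21.7 and 21.9 CPM in the Atg7-KO mice and 89.9, 84.1 and 72.6 CPM in Atg7-KO;p62T352A mice, and it was called in the same directions as Mafg (log2 -2.04 and 1.91, adjusted p = 0.00105 and 0.00113). Only 0.892% of the stretches of Mafg are shared with Sirt7.

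Mafk (chr5:139791513-139802653, plus strand) had 10.3, 18.1 and 31.4 CPM in cont., 26.9, 30.4 and 32.7 CPM in the Atg7-KO mice and 16.6, 15.8 and 18.8 CPM in Atg7-KO;p62T352A mice. Its Atg7-KO values lay above those of Atg7-KO;p62T352A without overlap and were reached by cont. mouse 3 only of the cont. mice. The log2 difference was 0.60 for Atg7-KO against cont. (adjusted p = 0.160, called without cont. mouse 3 at 1.08 and adjusted p = 0.00918) and -0.81 for Atg7-KO;p62T352A against Atg7-KO (interval -1.55 to -0.08, adjusted p = 0.0597), the latter called in 10 of 18 alternatives. Maff (chr15:79346621-79359076, plus strand) was the lowest of the set, with 3.50, 5.96 and 14.2 CPM in cont., 8.42, 9.37 and 11.6 CPM in the Atg7-KO mice and 1.64, 4.13 and 6.66 CPM in Atg7-KO;p62T352A mice. Its log2 difference was 0.34 for Atg7-KO against cont. (adjusted p = 0.629) and -1.23 for Atg7-KO;p62T352A against Atg7-KO (interval -2.45 to -0.01, adjusted p = 0.0808), and 6 of 18 alternatives called the latter. Of the stretches of Mafk, 2.48% are shared with Tmem184a on the opposite strand, which was at 7.79 to 15.2 CPM and was not called in any comparison.

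Since the small Mafs share a function, the share of each in their summed level per length (CPM per kilobase of annotated exon) was taken in every mouse. Mafg made up 52.7%, 70.4% and 60.3% of this sum in cont., 30.0%, 30.6% and 24.6% in Atg7-KO mice and 75%, 65.6% and 69.0% in Atg7-KO;p62T352A mice. Mafk made up 19.8% to 31.4%, 47.4% to 49.2% and 20.2% to 24.7%, and Maff made up 9.81% to 16.0%, 22.0% to 26.2% and 3.25% to 10.8%. Every Atg7-KO mouse thus had Mafk as its main small Maf, and each of the other 6 mice, cont. mouse 1 included, had Mafg. The Mafg share was lower by 32.7 percentage points in Atg7-KO than in cont. and higher by 41.4 points in Atg7-KO;p62T352A than in Atg7-KO, without overlap (exact permutation p = 0.1 for each, the smallest possible). In the second of these comparisons Mafg was higher and Mafk and Maff lower, each without overlap. The separation of the share was therefore fixed in advance there, with all mice or with 1 left out, and adds no evidence. With each mouse left out in turn the first difference was -36.9 to -28.1 points and the second 38.8 to 43.6. With the longest transcript as length, a choice made after seeing the data, the Mafg share was 49.7% to 67.9%, 22.5% to 28.2% and 62.9% to 72.9%. The sum itself overlapped between genotypes, at 8.43 to 34.1, 14.5 to 17.0 and 16.4 to 23.8 CPM per kilobase.

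**Figure D3:**
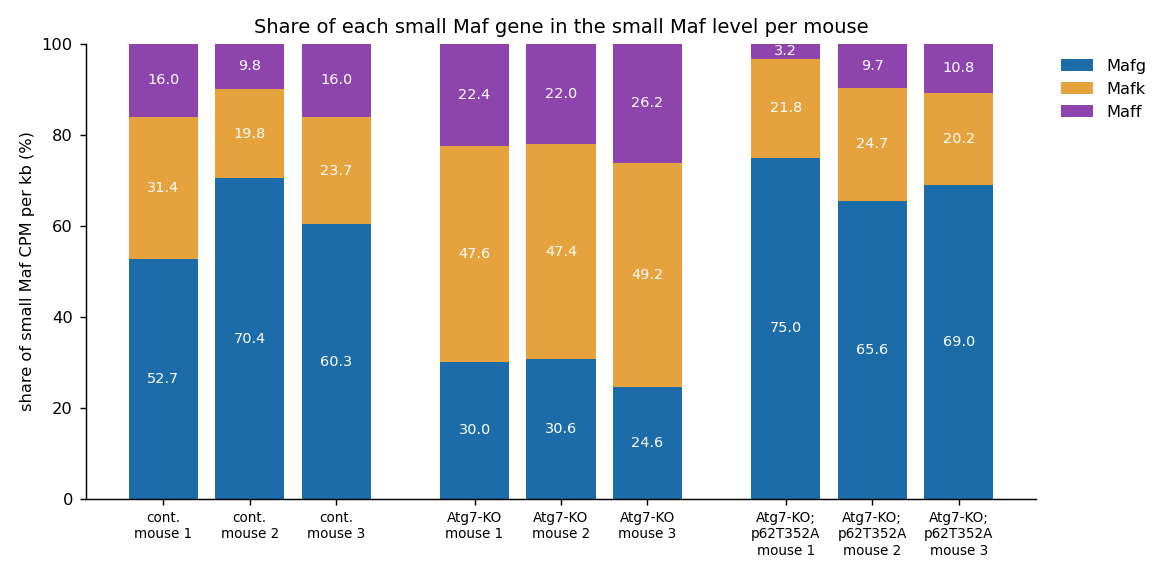
Share of Mafg, Mafk and Maff (%, vertical axis from 0 to 100) in their summed CPM per kilobase for each of the 9 mice. Mafg made up 24.6% to 30.6% in Atg7-KO mice and 52.7% or more in the other 6.

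The promoters of the members, taken from RefSeq (GRCm38.p6, 250 bases before to 50 after the start of transcription), were searched on both strands for the core of the antioxidant response element, TGACNNNGC, because the NRF2-small Maf and BACH1-small Maf dimers bind such elements. All 9 members had at least 1 window, 15 in all, and 4 of these windows (26.7%) held a match, beside 12.4% of all 32851 promoters of the same length. The 4 were those of Nfe2l2 (chr2:75704614-75704913, minus strand, match at -240), Mafg (chr11:120633498-120633797, minus strand, match from -222, on the other strand), the first of 3 Maff windows (chr15:79346371-79346670, plus strand, match at -112) and Mafk (chr5:139791286-139791585, plus strand, match from -13, on the other strand). They are shown 5′ to 3′ on the strand of the gene since each small Maf, though their levels went in different directions, had such a match, and the match is in capitals.
Nfe2l2: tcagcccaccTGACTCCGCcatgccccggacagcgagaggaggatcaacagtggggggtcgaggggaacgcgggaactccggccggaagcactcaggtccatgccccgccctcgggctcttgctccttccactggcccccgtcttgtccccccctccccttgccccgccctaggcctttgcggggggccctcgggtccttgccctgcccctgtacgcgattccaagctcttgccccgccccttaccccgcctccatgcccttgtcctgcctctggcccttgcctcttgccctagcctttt
Mafg: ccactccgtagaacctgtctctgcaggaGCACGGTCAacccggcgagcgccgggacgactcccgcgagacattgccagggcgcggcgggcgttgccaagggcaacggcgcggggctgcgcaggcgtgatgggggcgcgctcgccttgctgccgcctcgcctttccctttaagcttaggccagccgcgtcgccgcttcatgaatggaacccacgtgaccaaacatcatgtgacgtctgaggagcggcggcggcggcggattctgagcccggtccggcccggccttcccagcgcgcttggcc
Maff: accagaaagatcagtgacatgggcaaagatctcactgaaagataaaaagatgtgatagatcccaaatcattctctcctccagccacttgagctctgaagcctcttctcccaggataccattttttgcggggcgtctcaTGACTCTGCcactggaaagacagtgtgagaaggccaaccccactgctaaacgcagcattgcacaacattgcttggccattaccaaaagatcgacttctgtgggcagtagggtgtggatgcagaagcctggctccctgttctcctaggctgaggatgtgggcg
Mafk: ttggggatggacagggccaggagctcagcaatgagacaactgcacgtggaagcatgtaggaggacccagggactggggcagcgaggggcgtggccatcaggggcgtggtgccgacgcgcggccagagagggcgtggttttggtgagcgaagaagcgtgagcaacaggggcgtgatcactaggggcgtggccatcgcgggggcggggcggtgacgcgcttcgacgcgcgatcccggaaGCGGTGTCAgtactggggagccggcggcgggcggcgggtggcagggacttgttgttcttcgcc
No member window held the AP-1 site TGAGTCA, which 5.20% of all promoters hold. The windows of Keap1, Nfe2l1, Cul3, Rbx1 and Bach1, and those of Nqo1 and Sqstm1, had no match to either motif. A match describes the letters of this window and is not a measured binding site.

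Bach1 (chr16:87698945-87733346, plus strand), the repressor, had 36.3, 44.0 and 53.9 CPM in cont., 33.7, 45.0 and 39.3 CPM in the Atg7-KO mice and 29.9, 22.3 and 30.2 CPM in Atg7-KO;p62T352A mice. The last group lay below all 6 others, and cont. and Atg7-KO mice overlapped. The log2 difference was -0.52 for Atg7-KO;p62T352A against Atg7-KO (interval -0.98 to -0.06, adjusted p = 0.0571), -0.70 against cont. (interval -1.17 to -0.24, adjusted p = 0.0565) and -0.18 for Atg7-KO against cont. (adjusted p = 0.488), and none was called. The difference from cont. was called in 5 of 18 alternatives, among them DESeq2 (-0.75, adjusted p = 0.00638) and the fit without cont. mouse 1 (-0.83, adjusted p = 0.0105), and that from Atg7-KO in 3 of 18.

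The plot with each mouse left out in turn sets these dependences side by side. The values of Mafg, Cul3 and Rbx1 between Atg7-KO;p62T352A and Atg7-KO stayed within 1.49 to 1.78 for Mafg, -1.09 to -0.76 for Cul3 and 0.75 to 0.94 for Rbx1 on the log2 scale. Values against cont. spread more for Nfe2l2, Mafg, Mafk and Cul3, the last at -0.10 to 0.48 in Atg7-KO against cont. For Nfe2l2 the values between Atg7-KO;p62T352A and Atg7-KO spread too, at -0.37 to 0.26.

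**Figure D4:**
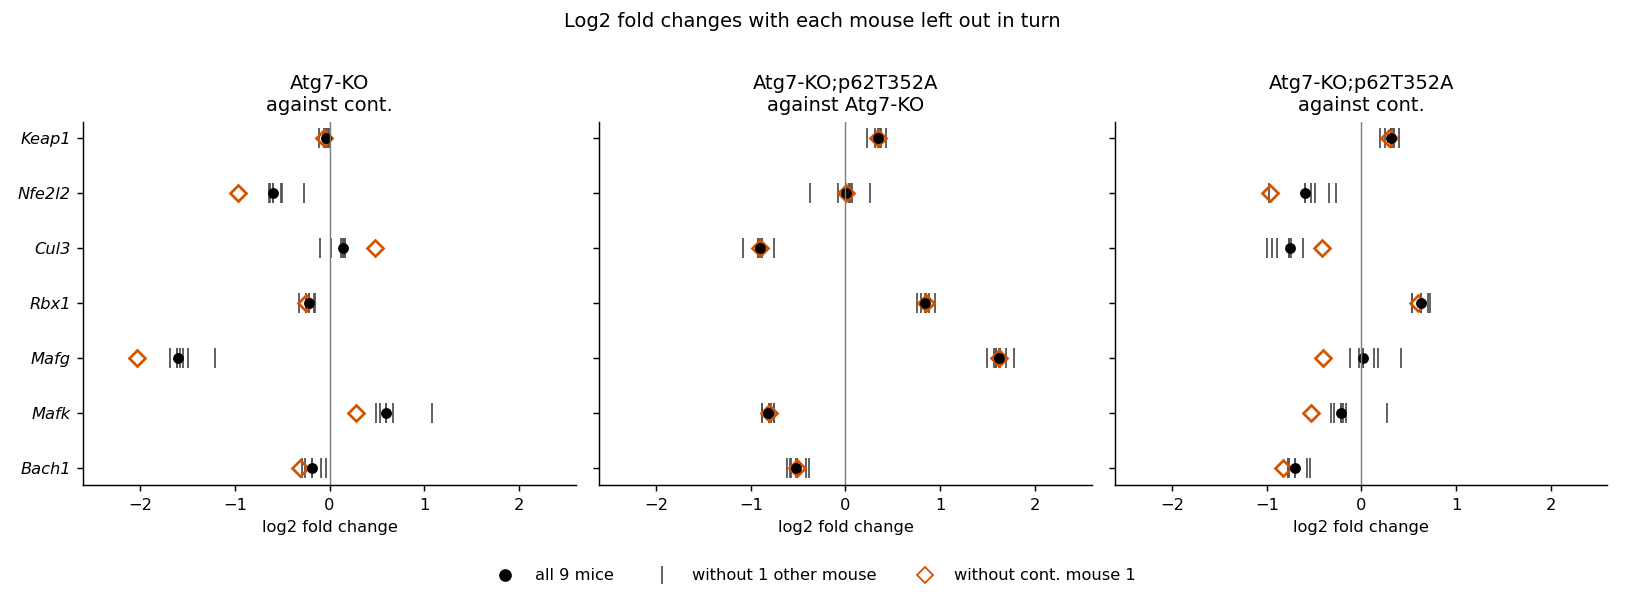
Log2 fold changes (horizontal axis) of 7 regulators with all 9 mice (filled circles), without cont. mouse 1 (diamonds) and without each other mouse (vertical ticks) in 3 comparisons. Without cont. mouse 1, Mafg moved from -1.61 to -2.03 and Nfe2l2 from -0.60 to -0.97 in the left panel.

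Per length, Nfe2l2 had the highest mean of the 9 mRNAs in all 3 genotypes, with 45.7 ± 24.0 CPM per kilobase in cont., 30.2 ± 2.95 in Atg7-KO mice and 30.3 ± 13 in Atg7-KO;p62T352A (SD, n = 3), though its range overlapped with that of Nfe2l1 in cont. and in Atg7-KO;p62T352A. In cont. it was followed by Nfe2l1, Mafg, Rbx1, Keap1, Cul3, Bach1, Mafk and Maff, and only Rbx1 and Keap1 of these neighbours did not overlap. In Atg7-KO the order was Nfe2l2, Nfe2l1, Keap1, Rbx1, Cul3, Mafk, Bach1, Mafg and Maff. There the 3 ligase genes were close to each other, at 11.2 ± 0.454 for Keap1, 11.0 ± 0.683 for Rbx1 and 10.2 ± 0.353 for Cul3, and the ranges of Keap1 and Rbx1 and of Rbx1 and Cul3 overlapped. In Atg7-KO;p62T352A the ligase genes lay apart, at 19.8 ± 2.61 for Rbx1, 14.2 ± 2.01 for Keap1 and 5.44 ± 1.23 for Cul3, and none of the 3 ranges overlapped. Mafg had rank 3 in cont. (13.8 ± 8.37), rank 8 in Atg7-KO (4.53 ± 0.446) and rank 5 in Atg7-KO;p62T352A (13.9 ± 2.89). Order and distances between genes depend on the length taken, here all annotated exon (4551 bases for Rbx1, 4693 for Keap1 and 4873 for Cul3). The longest transcripts have 2669, 3614 and 4709 bases. The order was not computed with them, so the closeness of the 3 ligase genes in Atg7-KO is stated for exon length only.

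Set beside Nqo1, the mRNAs of NRF2, KEAP1 and BACH1 did not separate the mice as Nqo1 did. The 3 mice with the highest Nqo1 lay within 50.3 to 54.4 CPM of Keap1, a range that included cont. mice 1 and 2. They lay within 33.7 to 45.0 CPM of Bach1, a range that included cont. mice 1 and 2. For Mafg, cont. mouse 1 shared the level of the Atg7-KO mice at an Nqo1 level of 6.36 CPM. The log2 ratio of Keap1 to Nfe2l2 overlapped in all comparisons, at -2.14 to -0.44 in cont., -1.18 to -1.02 in Atg7-KO mice and -1.51 to 0.12 in Atg7-KO;p62T352A mice (exact permutation p = 0.4, 0.6 and 0.3).

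**Figure D5:**
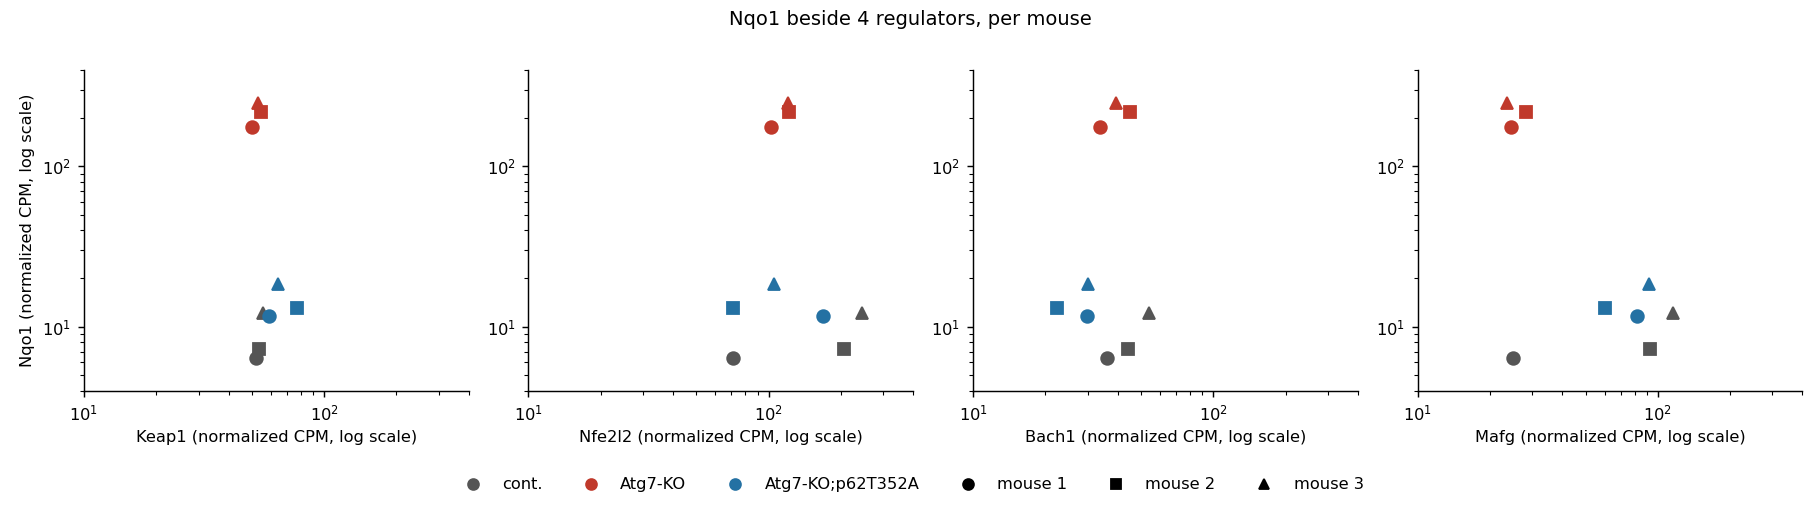
Nqo1 (vertical axis, normalized CPM, log scale) against Keap1, Nfe2l2, Bach1 and Mafg (horizontal axes, normalized CPM, log scale) in each mouse; colours mark genotypes and symbols the mouse number. Atg7-KO mice lay at 175 to 249 CPM of Nqo1 over Nfe2l2 and Bach1 levels that fell inside the range of the other 6 mice.

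Other genes of the pathway were taken in lists, whose counts stand beside 21.6% of all genes called higher and 22.1% lower in the comparison of Atg7-KO with cont., 24.7% and 26.2% in Atg7-KO;p62T352A against Atg7-KO, and 6.25% and 5.34% in Atg7-KO;p62T352A against cont. Of 24 NRF2 target genes, 21 were higher in Atg7-KO than in cont. and 23 were lower in Atg7-KO;p62T352A than in Atg7-KO (median log2 fold changes 2.23 and -2.10). Slc7a11, the cystine transporter, went from 0.378 ± 0.221 CPM in cont. to 247 ± 83.0 in Atg7-KO mice and 0.202 ± 0.196 in Atg7-KO;p62T352A, and Cbr3, a carbonyl reductase, from 1.16 ± 0.323 to 331 ± 15.2 and 1.17 ± 0.625 (SD, n = 3). Between Atg7-KO;p62T352A and cont., edgeR called 0 of the 24, with 5 higher at an unadjusted p under 0.05 and 2 higher by DESeq2. Without cont. mouse 1, 5 of the 24 were called higher than in cont., without cont. mouse 3 it was 3, and without Atg7-KO;p62T352A mouse 2 it was 1. Of 11 genes known as BACH1 targets, 9 rose and 1 fell in Atg7-KO, and 9 fell and 1 rose in Atg7-KO;p62T352A against Atg7-KO. The gene against the trend was Mafg in both, whose calls are described above, and Slc7a11, Nqo1, Gclm and Txnrd1 stand in the NRF2 list too.

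Genes of proteasome subunits and Pomp were listed as targets of NRF1, and the paper counts genes of proteasome subunits among NRF2 targets too. They were mostly not called in Atg7-KO: of 33, 1 was higher (Psmd8, a lid subunit of the regulatory particle, log2 1.20) and 2 were lower (Psmd1, log2 -0.98, and Psmb6, a catalytic subunit, log2 -0.62). In Atg7-KO;p62T352A 13 were higher and 3 lower than in Atg7-KO, and 6 were higher and 0 lower than in cont. (0 lower also by DESeq2, and 1 lower at an unadjusted p under 0.05). Psmd1 was at 193 ± 53.0, 98.1 ± 2.83 and 396 ± 12.0 CPM in the 3 genotypes, and Psmb6 at 148 ± 11.9, 96.3 ± 3.87 and 236 ± 34.9 CPM. Both were called in all 3 comparisons. With each mouse left out in turn, 0 to 2 of the 33 were higher and 1 to 5 lower in Atg7-KO than in cont., the 5 without cont. mouse 2. In Atg7-KO;p62T352A 7 to 14 were higher and 1 to 4 lower than in Atg7-KO, the 7 without Atg7-KO;p62T352A mouse 2, and 1 to 8 were higher than in cont., the 1 without Atg7-KO;p62T352A mouse 3. On the log2 scale the median of the list was -0.12, 0.36 and 0.15, while all genes had -0.03, 0.00 and 0.00.

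Of 30 genes of cullins, NEDD8 conjugation and the COP9 signalosome, which switch cullin ligases on and off, 1 was higher and 2 were lower in Atg7-KO. Cand2, an exchange factor for cullin receptors, rose by 3.39 on the log2 scale, and Dcun1d2 and Cops7b fell by 0.81 and 0.64. Without cont. mouse 1, 7 of the 30 were higher and 3 lower. In Atg7-KO;p62T352A against Atg7-KO 11 of the 30 were lower and 1 was higher (Cops7b, log2 0.78), with a median of -0.31, and the 11 became 6 without Atg7-KO mouse 1 or 3 or Atg7-KO;p62T352A mouse 1 or 3. Of 29 other adaptors of CUL3 tested, 4 rose and 3 fell in Atg7-KO, among them Enc1 (log2 2.89), Klhl13 (1.68), Rhobtb1 (-1.58) and Klhl2 (-0.76), and 2 were higher and 6 lower in Atg7-KO;p62T352A than in Atg7-KO. With each mouse left out these counts were 3 to 6, 2 to 4, 1 to 3 and 5 to 7.

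Of 13 genes of proteins that bind KEAP1, 3 rose and 4 fell in Atg7-KO, with Mcm3 (log2 2.21) and Sqstm1 (1.24) among the rises and Ikbkb (-0.88) and Cdk20 (-0.86) among the falls. Without any 1 of the 3 Atg7-KO mice no fall was called in this list (6 had an unadjusted p under 0.05 in the fit of all mice, and DESeq2 called 5), and without cont. mouse 1 there were 4 rises and 6 falls. Of the other CNC genes, Nfe2 rose (log2 1.73, at 1.76 ± 0.181 CPM) and Bach2 fell (log2 -1.06) in Atg7-KO, and Nfe2 was called the other way in Atg7-KO;p62T352A against Atg7-KO. Of 12 coregulators, 5 fell and 0 rose in Atg7-KO (0 rose also by DESeq2 and at an unadjusted p under 0.05), with Crebbp, the acetyltransferase CBP, at 37.8 ± 22.7 CPM in cont., 10.5 ± 1.71 in Atg7-KO mice and 77.3 ± 21.3 in Atg7-KO;p62T352A, and Chd6, a chromatin remodeller, at log2 -1.69. Without cont. mouse 1, 7 coregulators fell and 1 rose, without cont. mouse 3 also 1 rose, and without Atg7-KO mouse 2, 3 fell. In Atg7-KO;p62T352A 5 coregulators were higher and 0 lower than in Atg7-KO (1 lower by DESeq2, without cont. mouse 1 or without Atg7-KO;p62T352A mouse 2, and 2 at an unadjusted p under 0.05).

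Of 15 genes for other routes of NRF2 and NRF1 degradation or processing, 5 fell and 0 rose in Atg7-KO (0 rose by DESeq2, 1 at an unadjusted p under 0.05 and 2 without cont. mouse 1). Without cont. mouse 2 or any 1 of the Atg7-KO mice 3 of the 15 fell. Syvn1, the ER ligase HRD1, which ubiquitinates NRF1 and NRF2, fell by 1.46 on the log2 scale and was higher by 2.11 in Atg7-KO;p62T352A than in Atg7-KO (adjusted p = 0.00336 and 0.000441). Ddi2, the protease that cleaves NRF1, had 94.2 ± 14, 41.5 ± 2.91 and 10.8 ± 7.33 CPM in cont., Atg7-KO and Atg7-KO;p62T352A and was called lower in all 3 comparisons. Its value is uncertain because the whole transcript of Rsc1a1 lies inside Ddi2 on the same strand, with 100% of its 75-base stretches shared, so the counting had to divide reads between them. Rsc1a1 had 37.4, 133 and 165 CPM in cont., 18.6, 20.01 and 19.0 CPM in the Atg7-KO mice and 113, 85.9 and 88.8 CPM in Atg7-KO;p62T352A mice. The sum of both, computed after their values were seen, was 143 to 244, 57.1 to 64.3 and 92.9 to 133 CPM, so that Atg7-KO;p62T352A mice lay below Atg7-KO mice for Ddi2 and above them for the sum.

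For each regulator, the genes with the most similar pattern were sought among 10218 genes with a mean of at least 5 CPM, as the smallest root mean square difference of log2 CPM centred per gene over the 9 mice. Mafg was nearest to Taok2, Acin1 and Pan3, at 0.10, 0.13 and 0.13, where the median over all candidates was 0.97. Nfe2l2 was nearest to Agrn, Coro2b and Inppl1, at 0.15 to 0.18 (median 0.78), and Cul3 to Dis3, E430025E21Rik and Copg2, at 0.09 to 0.12 (median 0.68). Rbx1 was nearest to Poll, Ift27 and Tbcb, at 0.07 to 0.08 (median 0.56), Keap1 to Nsfl1c, D19Bwg1357e and Ppid, at 0.07 to 0.08 (median 0.48), and Bach1 to Atp2b4, Dock5 and Map4k3, at 0.10 to 0.13 (median 0.61). Nfe2l1 was nearest to Tmem11, Pald1 and Map3k11, at 0.13 to 0.14 (median 0.51), and Mafk to Fmnl3, Nrros and Lamb2, at 0.13 to 0.16 (median 0.73). Maff, at few counts, had no gene nearer than 0.38 (Rasa3, then Tead1 and Sh2d4a). No regulator was among the 3 nearest genes of another. With the largest difference over mice as the measure, 17 of the 27 genes were the same.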

How the data were processed

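Poly(A) RNA from the livers of 9 mice was sequenced by the authors as 75-base single-end reads, which were trimmed with Trim Galore and mapped to mm10 with STAR, and what the authors deposited are expected counts from RSEM for each gene and mouse, not scaled for library size. Their versions, the annotation and the strand setting are not given in the sources used here. The sample labels name an RNeasy kit for the extraction of RNA, whereas the methods name TRIzol.

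The expected counts were rounded to whole numbers. Genes were kept by filterByExpr, libraries were scaled by TMM, and 1 quasi-likelihood model in edgeR 4.0.16 (R 4.3.3) covered the 3 genotypes. Genes were called at a Benjamini-Hochberg adjusted p under 0.05 over 13922 genes and a fold change over 1.5, and intervals are at 95% and unadjusted. DESeq2 1.42.0 was an alternative. In the log2 CPM used for similarity the prior count was 2. Exact permutation tests were two-sided. Depth was 9671073 to 23285134 counts per mouse, and replicates differed by 13.9 to 326 times the counting noise (chi-square per degree of freedom), so none was counted as a repeat of another. No column was left unused. In simulated counts of 13639 genes for Atg7-KO against cont. with 200 genes changed 4-fold, 92.5% were recovered and 5 of 13444 unchanged genes were called. The simulation gave every gene and genotype the same dispersion of 0.08. It therefore does not describe smaller changes or genes that varied more among cont. mice, such as Mafg and Nfe2l2.

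The members, lists and tests were chosen with earlier results of these data known. Named one by one are the members, Nqo1, Sqstm1, Atg7 and Xist, the 2 largest rises and falls in Atg7-KO among the called genes of each list, and the 3 genes most similar to each member. A gene that this rule names is not reported here. Sirt7, Tmem184a and Rsc1a1 were added after their values were seen because they overlap named genes. Positions are from GENCODE (vM21, GRCm38). Other alternatives were other scalings and filters, a block for the mouse number, glmTreat, adjusted p alone, fits of 2 genotypes and mice left out.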

Additional observations from a re-analysis of the deposited data

How the results depend on the processing

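The number of regulators called in Atg7-KO against cont. was 1 and became 2 without the mice numbered 1 (Nfe2l2 added). With each mouse left out in turn it was 0 to 2. In Atg7-KO;p62T352A against Atg7-KO the number was 3. It was 5 with DESeq2, with upper-quartile scaling, with at least 10 counts in every mouse, with the fit of only these 2 genotypes and without the mice numbered 1, it was 1 with glmTreat (Mafg), and it was 2 to 5 with each mouse left out. In Atg7-KO;p62T352A against cont. the number was 1. With DESeq2 it was 2, but these were Cul3 and Bach1, both lower, and Rbx1 was not called. The number was also 2 with upper-quartile scaling and without the mice numbered 1. It was 0 with no filter, with glmTreat and with the fit of only these 2 genotypes, and 0 to 3 with each mouse left out. Beside the counts of 0, 3 regulators had an unadjusted p under 0.05 in the fit of all mice in this comparison.

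Directions turned only for values that were not called. Keap1 in Atg7-KO against cont. was 0.082 with upper-quartile scaling and 0.049 with at least 10 counts. With each mouse left out, Cul3 in this comparison was -0.10 to 0.48 and Maff -0.033 to 1.06. Nfe2l2 in Atg7-KO;p62T352A against Atg7-KO (0.00) was -0.030 with DESeq2 and with its size factors, -0.14 with upper-quartile scaling, -0.017 with no filter, -0.072 with at least 10 counts, -0.46 without the mice numbered 1, and -0.37 to 0.26 with each mouse left out. Mafg in Atg7-KO;p62T352A against cont. (0.01) was -0.023 with DESeq2 and -0.022 with its size factors, -0.44 without the mice numbered 1, and -0.41 to 0.42 with each mouse left out, and Mafk there was -0.53 to 0.27. The cause was not tested. With upper-quartile scaling the log2 median over all genes went from -0.03 to 0.08 in Atg7-KO against cont. and from 0.00 to -0.13 in Atg7-KO;p62T352A against Atg7-KO.

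The mouse numbers are shared by the genotypes, but they do not mark a stated litter or day. Deviations from the genotype means correlated at a mean r of 0.22 among mice numbered 1, -0.03 among those numbered 2 and 0.25 among those numbered 3, and 6 of 9 mice correlated best with a mouse of their own number. In a fit that took the number as a replicate block, 1, 5 and 0 regulators were called in the 3 comparisons. Maff (-1.44, adjusted p = 0.00922) and Mafk (-0.81, adjusted p = 0.0387) were added in Atg7-KO;p62T352A against Atg7-KO, and Rbx1 lost its call against cont. (0.63, adjusted p = 0.0807).

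With 3 mice in a group no permutation test can go below p = 0.1. Maff, at 1.64 to 14.2 CPM, had the widest intervals.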
